A study of Mus musculus with 24 samples.

Results

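The genes described here encode the enzymes that make serine, carry one-carbon units on folate, and build purine and pyrimidine nucleotides, 42 genes chosen by name from the 11140 genes of the deposited count table. They were measured by RNA sequencing of B lymphoma cells, which had been purified from spleen in C57BL/6 mice. T cell deficient lymphomas, 11 in number, came from mice of genotype Bcl6Tg/+CD3Epsilon-/-, which carry a Bcl6 transgene and lack Cd3e, part of the signalling complex that T cells need to develop. T cell sufficient lymphomas, 12 in number, came from mice of genotype Bcl6Tg/+, which carry the same transgene and keep their T cells, so every lymphoma of the study arose in a Bcl6-transgenic animal. Neither the transgene's promoter nor the mice's age is given in the labels used here. Libraries were sequenced in 2 runs, with 5 T cell deficient and 7 T cell sufficient libraries in run 1, and 6 T cell deficient and 5 T cell sufficient libraries in run 2.

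Serine is made from an intermediate of glycolysis by Phgdh, Psat1 and Psph. Serine hydroxymethyltransferases then pass a carbon of serine to folate, Shmt2 in the mitochondrion and Shmt1 in the cytosol, and the folate-bound carbon is used for thymidylate and for the purine ring. The purine ring is assembled step by step on phosphoribosyl pyrophosphate (PRPP), a sugar phosphate made by Prps1 and Prps2, up to inosine monophosphate, from which separate branches lead to AMP and GMP. The pyrimidine ring is made first and joined to PRPP afterwards. Dividing lymphocytes draw heavily on these routes, and inhibitors of several of their enzymes are used against lymphoma or to suppress lymphocytes.

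Total counts over the listed genes, in units of 1e6, ran from 11.8 to 28.1 in T cell deficient libraries and from 7.58 up to 30.6 in T cell sufficient libraries, so that 3 counts were worth 0.0980 to 0.396 CPM, counts per 1e6 counts of the library. Levels below are CPM scaled by TMM factors, which even out differences in composition between libraries. The 8 B cell markers summed to 3735 to 8140.4 CPM in T cell deficient and to 5186 to 10721 CPM in T cell sufficient libraries, and 4 of the 8 were lower in T cell deficient lymphomas. The 14 tested monocyte and macrophage markers summed to 433 to 1262 CPM in T cell deficient and 894 to 3822 CPM in T cell sufficient libraries, 5 of them lower in T cell deficient lymphomas, and none of the 14 was at 0 in all libraries. The 9 tested T cell markers summed to 216 to 1640.0 CPM in T cell deficient and 253 to 880.1 CPM in T cell sufficient libraries, 1 higher and 1 lower. Of 6 plasma cell markers 2 were lower, and the sums were 1083 to 3560 CPM in T cell deficient and 925 to 4517 CPM in T cell sufficient libraries. Of 4 stroma and endothelium markers 2 were lower, with sums of 24.4 to 163 CPM in T cell deficient and 30.3 to 259 CPM in T cell sufficient libraries. T cell sufficient lymphoma 11 was the highest of its group for 11 of the 14 monocyte and macrophage markers and for all 7 erythroid markers. The part of these other cells in the results was not tested, and in bulk samples fewer cells of a type and less RNA per cell cannot be told apart. T cell sufficient lymphomas 9, 10 and 11 held more than 10 CPM of both Xist, the transcript of the inactive X chromosome, and the Y-linked Ddx3y. Results are given with and without them where they differ. In T cell deficient lymphomas 1, 3, 4, 6, 7, 8, 9 and 11, Ddx3y was at 58.7 to 203 CPM. Xist reached at most 3.39 CPM there. Among T cell sufficient lymphomas only 4, 5 and 7 held over 10 CPM of Ddx3y with Xist under 10 CPM. These transcripts were thus spread unevenly over the groups. The part of sex in the results was not tested beyond a fit with Xist as a further term.

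All 42 genes were tested, and 11 differed between the groups by the quasi-likelihood test of edgeR, fitted with run as a covariate (Benjamini-Hochberg adjusted p under 0.05 over all 11020 genes tested). In T cell deficient lymphomas 10 were higher, namely Phgdh, Shmt1, Tyms, Umps, Ctps, Dut, Dctpp1, Gart, Impdh2 and Gmps, and 1 was lower, Prps2. The other 31 did not pass the test. The share called was 26.2%, beside 22.2% of all genes, with 10.6% of all genes called higher and 11.7% called lower. The 10 higher genes were spread over serine synthesis (Phgdh), folate (Shmt1), thymidylate (Tyms), pyrimidine (Umps, Ctps, Dut, Dctpp1) and purine routes (Gart, Impdh2, Gmps). Their rises were modest, from 1.24-fold for Dctpp1 to 1.77-fold for Shmt1. The counts by route given below cover 1 to 8 genes each and stand beside the same 22.2% of all genes. Whether routes differed from each other or from that share was not tested. For 0 of the 42 genes were the groups fully apart, beside 0.0907% of all genes fully higher and 0.0726% fully lower. The log2 fold changes of the 42 genes had a median of 0.25, against -0.01 over all genes, and 32 of the 42 were above 0. The count fell to 7 without T cell deficient lymphoma 4, to 7 without T cell deficient lymphoma 5, and to 7 without T cell sufficient lymphomas 9, 10 and 11. Over all genes the number called fell from 2448 to 1956, 2015 and 1470 in these fits. In the last of these Phgdh, Tyms, Dctpp1 and Gmps no longer passed, all still above 0. With library totals alone as scaling 18 of the 42 were called, 17 of them higher, beside 2635 of all genes. The median log2 fold change over all genes was then 0.06.

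**Figure D1:**
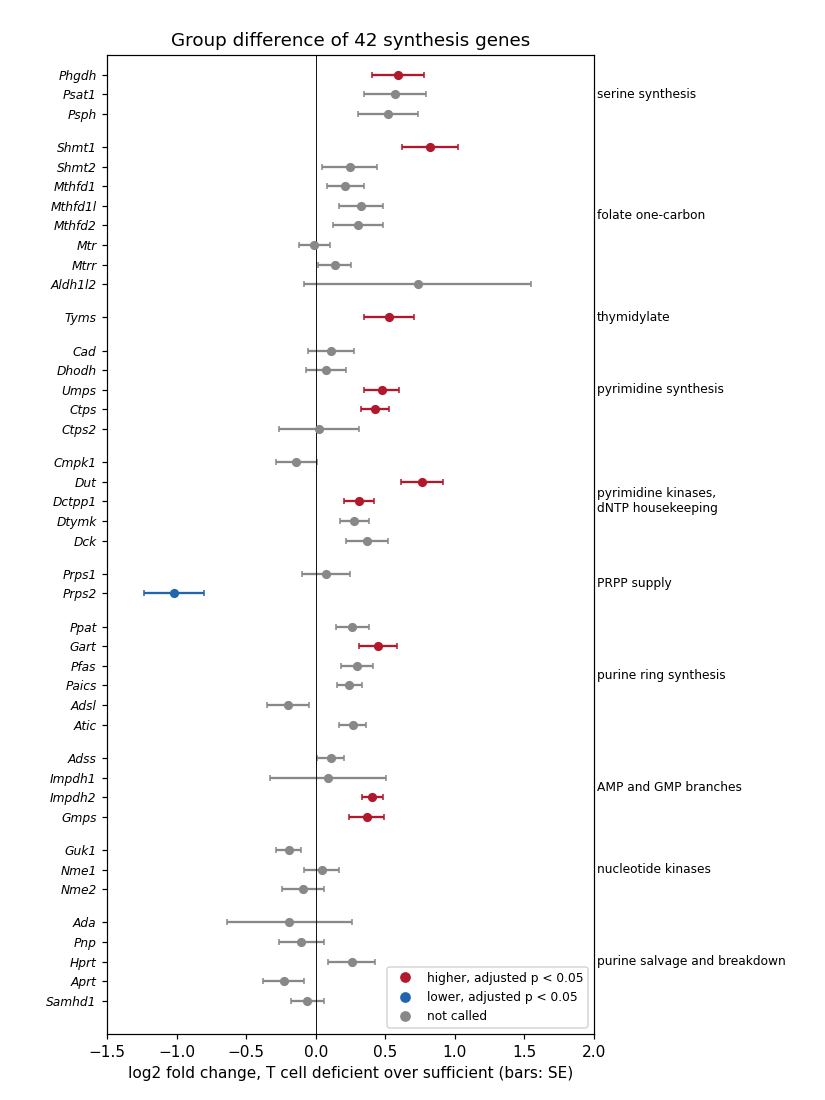
Log2 fold change of T cell deficient over T cell sufficient lymphomas for the 42 genes, grouped by route, with bars for the standard error (n = 11 and 12). Most points lie to the right of 0, the 10 genes called higher lie between 0.31 and 0.82, and Prps2 stands alone at -1.02.

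The promoters of 4 of these genes are shown because their genes went different ways: Phgdh and Tyms were higher, Prps2 was lower, and its isozyme Prps1 did not pass the test. Each is the 250 bases before the gene's start in RefSeq on GRCm38.p6, read 5′ to 3′ on the gene's strand, with matches of the searched motifs in capitals. The window of Phgdh lies at chr3:98339970-98340219 (minus strand), Tyms at chr5:30073626-30073875 (minus strand), Prps1 at chrX:140456353-140456602 (plus strand) and Prps2 at chrX:167382750-167382999 (minus strand).
Phgdh: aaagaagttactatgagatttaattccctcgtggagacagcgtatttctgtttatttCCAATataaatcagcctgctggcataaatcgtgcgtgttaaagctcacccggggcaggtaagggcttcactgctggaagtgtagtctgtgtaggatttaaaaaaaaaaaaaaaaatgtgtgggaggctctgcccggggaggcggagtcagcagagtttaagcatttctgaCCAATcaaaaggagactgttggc
Tyms: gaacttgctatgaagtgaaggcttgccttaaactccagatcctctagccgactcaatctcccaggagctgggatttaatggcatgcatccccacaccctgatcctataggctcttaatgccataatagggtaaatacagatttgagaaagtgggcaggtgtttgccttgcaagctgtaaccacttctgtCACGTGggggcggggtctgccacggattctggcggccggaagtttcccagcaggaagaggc
Prps1: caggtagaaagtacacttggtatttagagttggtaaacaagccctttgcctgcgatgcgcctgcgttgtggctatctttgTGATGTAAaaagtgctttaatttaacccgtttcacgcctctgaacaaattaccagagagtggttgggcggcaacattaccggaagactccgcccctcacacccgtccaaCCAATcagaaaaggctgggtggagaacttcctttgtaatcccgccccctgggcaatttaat
Prps2: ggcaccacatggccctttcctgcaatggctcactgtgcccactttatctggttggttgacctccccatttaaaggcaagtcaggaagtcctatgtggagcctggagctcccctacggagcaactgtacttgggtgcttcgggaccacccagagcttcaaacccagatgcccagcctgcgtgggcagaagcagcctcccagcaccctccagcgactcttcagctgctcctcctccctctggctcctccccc
Capitals mark CCAAT boxes in Phgdh and Prps1, the E-box CACGTG in Tyms, and TGATGTAA, a match of the ATF4 composite element TGATGNAA, in Prps1.

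A RefSeq promoter window of 300 bases, 250 before the start and the rest after it, was found for 39 of the 42 genes and not for Pfas, Dhodh and Aldh1l2, which are named only. Motifs were searched on both strands. The composite element TGATGNAA, bound by ATF4, a transcription factor of the amino acid response, was present in 1 of the 39, Prps1, in 3.97% of all 32851 windows and in 2.85% of the 8551 genes of the count table that have a window. The E-box CACGTG, a site of MYC and related factors, was present in 6 of the 39 (Atic, Dtymk, Impdh2, Nme1, Paics and Tyms), in 7.15% of all windows and in 12.2% of those table genes. The E2F site TTTGGCGC was found in 0 of the 39, in 0.514% of all windows and in 1.19% of table genes. Its other form TTTCCCGC was found in 2, Ppat and Prps2, in 1.07% of windows and in 2.48% of table genes; in Prps2 it lies 33 bases after the start, outside the bases printed. CCAAT was found in 19 of the 39, in 37.4% of all windows and in 43.2% of table genes. A match describes letters in these windows and no measured binding.

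**Figure D2:**
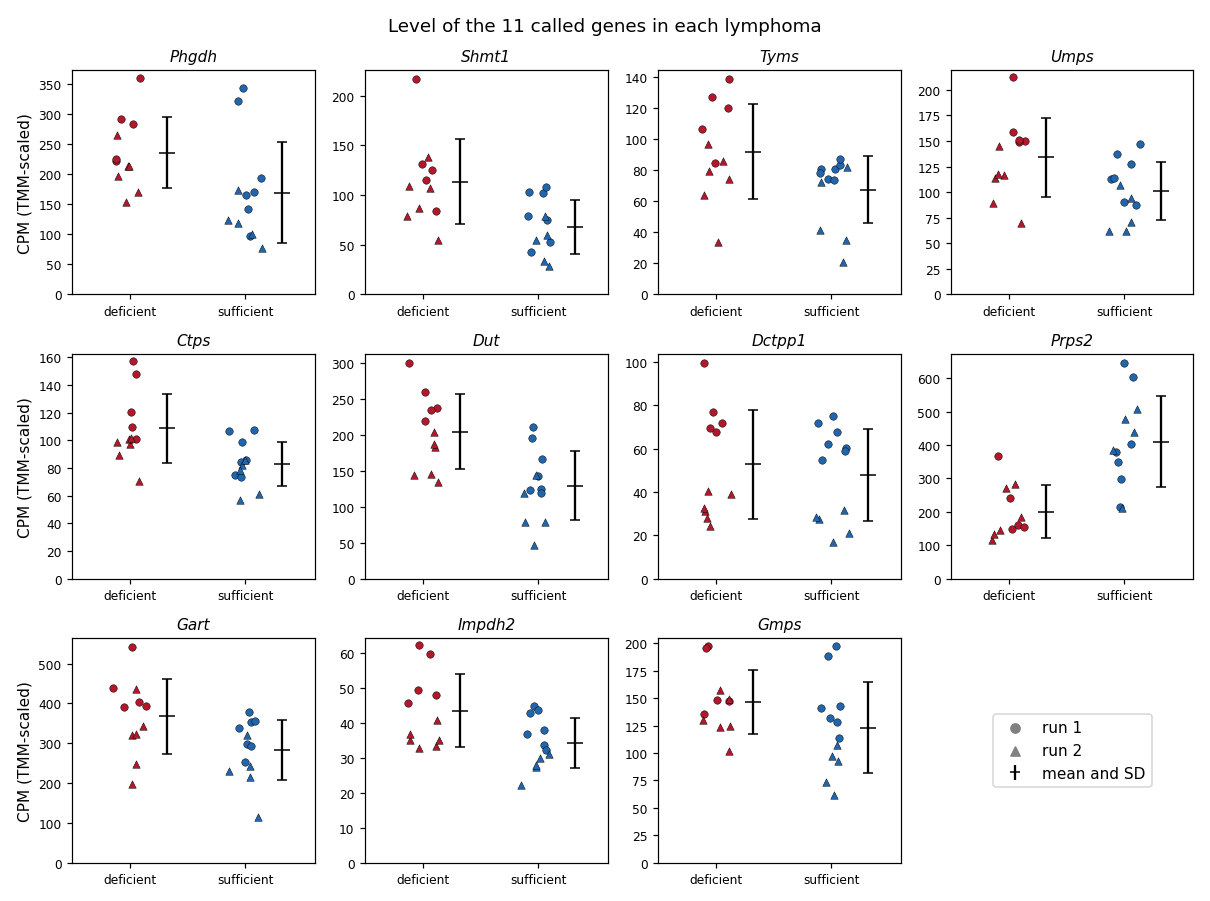
Level in CPM (TMM-scaled, linear axes from 0) of the 11 called genes in each lymphoma, T cell deficient at left and T cell sufficient at right, circles for run 1, triangles for run 2, with mean and SD. Groups overlap in every panel. Prps2 is the panel in which T cell deficient lymphomas lie low, at 116 to 368 CPM, against 213 to 646 CPM in T cell sufficient lymphomas.

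In the serine route, Phgdh, the enzyme of the first step, rose 1.51-fold in T cell deficient lymphomas. Its lowest, median and highest levels were 153, 223 and 360.0 CPM in T cell deficient lymphomas, against 77.4, 154 and 344 CPM in T cell sufficient lymphomas. The groups overlapped, but 10 of 11 T cell deficient lymphomas lay above the T cell sufficient median and 6 of 12 T cell sufficient lymphomas lay below every T cell deficient one. It averaged 236 ± 59.6 CPM in T cell deficient (SD, n = 11) and 169.5 ± 84.2 CPM in T cell sufficient lymphomas (SD, n = 12), with a log2 fold change of 0.59 ± 0.18 SE (edgeR adjusted p = 0.0260). Psat1, the aminotransferase of the second step, averaged 339 ± 148 CPM in T cell deficient and 258 ± 134 CPM in T cell sufficient lymphomas, and the log2 fold change, 0.57 ± 0.22 SE, did not pass the test (adjusted p = 0.0673). Psph, the phosphatase of the last step, averaged 53.2 ± 45.1 CPM and 38.5 ± 10.6 CPM in the same order (0.52 ± 0.21 SE, adjusted p = 0.0848). Its medians ran the other way, 37.7 CPM in T cell deficient and 39.6 CPM in T cell sufficient lymphomas. The log2 fold change of Psph fell as low as 0.21 in fits that left out 1 lymphoma. Without T cell sufficient lymphomas 9, 10 and 11, Phgdh did not pass the test (0.58, adjusted p = 0.0735).

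T cell deficient lymphoma 9 held the highest level of all 3 serine genes among the 23 libraries. It had 360.0 CPM of Phgdh, 687 CPM of Psat1 and 183 CPM of Psph. The next highest T cell deficient values of Psat1 and Psph were 447 CPM, in lymphoma 5, and 69.1 CPM, in lymphoma 7. The same lymphoma led for Shmt2 at 801 CPM, for Mthfd2 at 283 CPM, for Mthfd1l at 214 CPM and for Aldh1l2 at 59.8 CPM, the enzymes of mitochondrial folate. It held the highest level of 4 of the 8 folate genes, of 0 of the 6 purine ring genes and of 0 of the 5 pyrimidine ring genes. Across the 11 T cell deficient lymphomas it was highest for 12 of the 42 genes, and for 14.6% of all genes. Of 19 other genes of the ATF4 response listed for comparison, 15 were highest among T cell deficient lymphomas in lymphoma 9. Asns, which makes asparagine, stood there at 398 CPM, and Atf5, a transcription factor of this response, at 552 CPM. Library 9 was chosen for this account after its values were seen.

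Among the folate genes, Shmt1, the cytosolic serine hydroxymethyltransferase, rose the most of all 42 genes that passed the test. Levels were 55.1, 109 and 217 CPM (lowest, median, highest) in T cell deficient lymphomas, against 28.7, 67.8 and 108 CPM in T cell sufficient lymphomas. The groups overlapped, with 6 of 11 T cell deficient lymphomas above every T cell sufficient one. The log2 fold change was 0.82 ± 0.20 SE (edgeR adjusted p = 0.00715), with means of 114 ± 42.3 CPM (SD, n = 11) and 68.2 ± 27.2 CPM (SD, n = 12). Its mitochondrial isozyme Shmt2, the folate gene with the highest level per length, had 95.5, 268 and 801 CPM in T cell deficient and 180.2, 284 and 309.9 CPM in T cell sufficient lymphomas. The T cell deficient lymphomas spanned the wider range at both ends, and the difference did not pass the test (0.24 ± 0.20 SE, adjusted p = 0.391). Of the remaining folate genes, Mthfd1l (0.32 ± 0.16 SE), Mthfd2 (0.30 ± 0.18 SE), Mthfd1 (0.21 ± 0.13 SE) and Mtrr (0.13 ± 0.12 SE) had positive differences and Mtr, methionine synthase, was at -0.01 ± 0.11 SE, none past the test. Aldh1l2, a mitochondrial formyltetrahydrofolate dehydrogenase, ranged from 0.598 to 59.8 CPM in T cell deficient and from 0 to 37.3 CPM in T cell sufficient lymphomas, and its difference had a wide error (0.73 ± 0.82 SE).

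Thymidylate synthase, Tyms, which uses a folate-bound carbon to make the base that marks DNA, was 1.44-fold higher. Levels were 33.6, 85.6 and 139 CPM in T cell deficient lymphomas, against 21.2, 76.2 and 86.8 CPM in T cell sufficient lymphomas, and 5 of 11 T cell deficient lymphomas lay above every T cell sufficient one. The log2 fold change was 0.53 ± 0.18 SE (edgeR adjusted p = 0.0401). The table names this row Tyms by its identifier and Tyms-ps, a pseudogene, in its name column, so reads of the gene and of its copy may be mixed there. The call was lost in 15 of the 23 fits that left out 1 lymphoma, the most of the 11 genes, where adjusted p reached 0.0754. The lymphomas left out were T cell deficient lymphomas 1, 2, 3, 4, 5, 7, 9 and 10 and T cell sufficient lymphomas 1, 2, 3, 7, 8, 10 and 11.

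Of the 5 genes that build the pyrimidine ring and CTP, 2 were higher. Umps, which closes the route to UMP and has the highest level per length of the 5, had 70.0, 145 and 212 CPM in T cell deficient lymphomas, against 62.1, 101 and 147 CPM in T cell sufficient lymphomas. It differed by 0.47 ± 0.13 SE on the log2 scale (edgeR adjusted p = 0.0110), and 5 of 11 T cell deficient lymphomas exceeded every T cell sufficient one. Ctps, a CTP synthase, had 70.3, 101 and 158 CPM in T cell deficient lymphomas, against 57.2, 83.6 and 108 CPM in T cell sufficient lymphomas (0.43 ± 0.10 SE, adjusted p = 0.00532). In 10 of 11 T cell deficient lymphomas Ctps exceeded the T cell sufficient median. Cad, the multifunctional enzyme of the first steps, averaged 259 ± 98.0 CPM in T cell deficient and 242 ± 40.8 CPM in T cell sufficient lymphomas, Dhodh, the mitochondrial dehydrogenase of the route, 20.8 ± 5.47 and 19.8 ± 4.07 CPM, and Ctps2 47.7 ± 25.3 and 47.1 ± 20.9 CPM, none past the test.

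Dut, the pyrophosphatase that removes dUTP so that uracil does not enter DNA, was 1.69-fold higher. Levels were 134, 205 and 300.3 CPM in T cell deficient lymphomas, against 46.2, 124 and 212 CPM in T cell sufficient lymphomas. All 11 T cell deficient lymphomas lay above the T cell sufficient median, and 7 of 12 T cell sufficient lymphomas lay below every T cell deficient one. The log2 fold change was 0.76 ± 0.15 SE (edgeR adjusted p = 0.00173). Dctpp1, which degrades dCTP and modified forms of it, had 24.3, 40.3 and 99.7 CPM in T cell deficient lymphomas, against 16.9, 56.9 and 75.3 CPM in T cell sufficient lymphomas. Its levels split by run more than by group: they averaged 77.1 ± 13.1 and 64.5 ± 7.42 CPM in run 1 (T cell deficient n = 5, T cell sufficient n = 7) and 32.6 ± 6.19 and 25.2 ± 6.03 CPM in run 2 (n = 6 and 5). With the run term it differed by 0.31 ± 0.11 SE in log2 CPM (adjusted p = 0.0422), a call lost in 10 of 23 fits that left out 1 lymphoma (T cell deficient 1, 2, 4, 5 and 7, T cell sufficient 1, 3, 7, 8 and 10). Dck, deoxycytidine kinase (0.37 ± 0.15 SE, adjusted p = 0.0770), and Dtymk, thymidylate kinase (0.28 ± 0.10 SE, adjusted p = 0.0621), did not pass. Cmpk1, a UMP and CMP kinase and the highest of these genes per length, had 204, 288 and 377 CPM in T cell deficient and 222, 296 and 612 CPM in T cell sufficient lymphomas (-0.14 ± 0.15 SE).

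Prps2, which makes PRPP, was the only one of the 42 genes called lower in T cell deficient lymphomas, by 2.03-fold. Levels were 116, 159.6 and 368 CPM in T cell deficient lymphomas, against 213, 395 and 646 CPM in T cell sufficient lymphomas. The groups overlapped, but every T cell deficient lymphoma lay below the T cell sufficient median, 7 of 11 lay below all T cell sufficient lymphomas, and 8 of 12 T cell sufficient lymphomas lay above all T cell deficient ones. It averaged 201 ± 79.6 CPM in T cell deficient (SD, n = 11) and 409.9 ± 136 CPM in T cell sufficient lymphomas (SD, n = 12), giving a difference on the log2 scale of -1.02 ± 0.22 SE (edgeR adjusted p = 0.00264). The gene lies on chromosome X at 167346322 to 167382749 (GRCm38, minus strand). With the level of Xist as a further term, an alternative chosen after seeing the data, the value for Prps2 was -1.17 (edgeR adjusted p = 0.00427). Its isozyme Prps1, on the same chromosome at 140456613 to 140476140, had 38.1, 65.4 and 157 CPM in T cell deficient and 48.5, 67.4 and 136 CPM in T cell sufficient lymphomas (0.07 ± 0.17 SE, adjusted p = 0.792).

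Per length of merged annotated exons, Prps2 made up 57.0% ± 13.5 (SD, n = 11) of the Prps1 and Prps2 level in T cell deficient lymphomas, against 72.7% ± 8.31 (SD, n = 12) in T cell sufficient lymphomas. Its share ran from 34.4 to 79.3% in the T cell deficient group and from 58.0 to 83.0% in the T cell sufficient group, with 6 of 11 T cell deficient lymphomas below all T cell sufficient ones. Shmt2 likewise made up less of the Shmt1 and Shmt2 level, 75.8% ± 6.43 against 83.6% ± 4.88, and 5 of 11 T cell deficient lymphomas lay below all T cell sufficient ones. Both shares restate the differences of Prps2 and Shmt1 and carry no test of their own. The share of Ctps beside Ctps2 was 76.4% ± 11.9 in T cell deficient and 71.7% ± 10.6 in T cell sufficient lymphomas. That of Impdh2 beside Impdh1 was 75.8% ± 13.1 and 70.0% ± 11.9 in the same order, within the spread of each group.

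**Figure D3:**
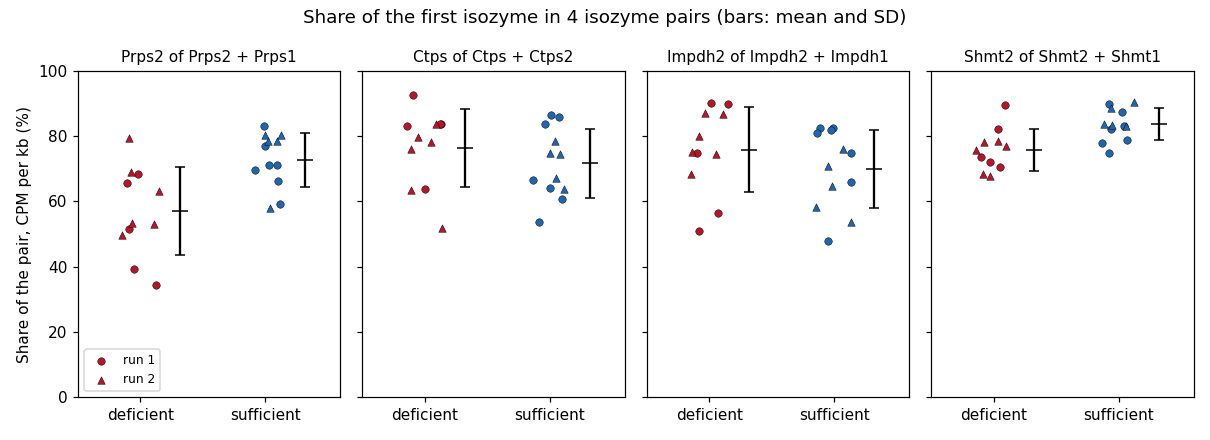
Share of the named isozyme in its pair, in percent of the summed CPM per kilobase, for each lymphoma, T cell deficient at left and T cell sufficient at right of each panel, with mean and SD. Prps2 made up 34.4 to 79.3% of its pair in T cell deficient and 58.0 to 83.0% in T cell sufficient lymphomas.

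In the purine ring route, 1 of 6 genes was called. Gart, which carries out several steps and takes up a folate-bound formyl group, had 198, 390.3 and 543 CPM in T cell deficient lymphomas, against 114, 295 and 379 CPM in T cell sufficient lymphomas. The log2 fold change was 0.45 ± 0.14 SE (edgeR adjusted p = 0.0252), 6 of 11 T cell deficient lymphomas lay above every T cell sufficient one, and the call was lost without T cell deficient lymphoma 4 or 5 (adjusted p at most 0.0522). Atic, the enzyme of the last steps (0.27 ± 0.10 SE, adjusted p = 0.0508), Paics (0.24 ± 0.09 SE, adjusted p = 0.0620), Pfas (0.30 ± 0.12 SE, adjusted p = 0.0692) and Ppat, the enzyme of the first committed step (0.26 ± 0.12 SE, adjusted p = 0.120), were positive and did not pass the test. Paics, the highest of the 6 per length, had 228, 352 and 433 CPM in T cell deficient and 205, 303 and 481 CPM in T cell sufficient lymphomas. Adsl, adenylosuccinate lyase, which acts in the ring and again in the AMP branch, was the exception in sign at -0.20 ± 0.15 SE (adjusted p = 0.359).

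After inosine monophosphate, 2 of the 3 genes of the GMP branch were higher, Impdh2 and Gmps, and Impdh1 did not pass the test. Impdh2, the IMP dehydrogenase isozyme that rises in proliferating lymphocytes, had 32.8, 40.9 and 62.2 CPM in T cell deficient lymphomas, against 22.3, 32.9 and 44.9 CPM in T cell sufficient lymphomas. Its log2 fold change of 0.41 ± 0.08 SE had the smallest adjusted p of the 42 genes (0.00140, edgeR). Gmps, GMP synthetase, had 101, 148 and 197 CPM in T cell deficient lymphomas, against 62.0, 121 and 198 CPM in T cell sufficient lymphomas (0.37 ± 0.12 SE, adjusted p = 0.0384). Its call was lost in 13 of 23 fits that left out 1 lymphoma (T cell deficient 1, 2, 3, 4, 5, 7 and 9, T cell sufficient 3, 7, 8, 10, 11 and 12). Adss, on the AMP branch and the highest of this group per length, had 80.1, 147 and 182 CPM in T cell deficient and 99.7, 137 and 153 CPM in T cell sufficient lymphomas (0.11 ± 0.10 SE). Impdh1, the constitutive isozyme, ranged from 5.20 to 61.1 CPM and from 8.09 to 49.6 CPM in the same order (0.09 ± 0.42 SE).

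None of the 3 nucleotide kinases and none of the 5 genes of purine salvage and breakdown was called. Nme2, which with Nme1 makes nucleoside triphosphates and had the highest level per length of all 42 genes, had 91.0, 179.8 and 467 CPM in T cell deficient lymphomas, against 178, 257 and 340.0 CPM in T cell sufficient lymphomas (-0.09 ± 0.15 SE). The T cell deficient lymphomas reached further in both directions, 5 below and 2 above all T cell sufficient ones. The 5 were all of run 2 and the 2 both of run 1. Nme2 was lower in run 2 than in run 1 (-0.75 ± 0.15 SE, edgeR adjusted p = 0.000438), and its group difference was 0.22 in run 1 and -0.43 in run 2. Hprt, which salvages hypoxanthine and guanine, had 136, 184 and 418 CPM in T cell deficient and 104, 179 and 383 CPM in T cell sufficient lymphomas (0.26 ± 0.17 SE). Guk1, guanylate kinase (-0.20 ± 0.09 SE), Aprt, which salvages adenine (-0.23 ± 0.15 SE), Ada, adenosine deaminase (-0.19 ± 0.45 SE), Pnp, purine nucleoside phosphorylase (-0.10 ± 0.16 SE), and Samhd1, which degrades deoxynucleotides (-0.06 ± 0.12 SE), had negative differences that did not pass the test, and Nme1 was at 0.04 ± 0.13 SE.

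Several rows have relatives that the counts may not keep apart. Ppat and Paics lie head to head on chromosome 5 with annotated starts 271 bases apart and overlapping gene bounds, and no source used here gives the strand setting of the counting. Nme1 and Nme2, similar in sequence, are neighbours on chromosome 11 with 719 bases between them. Phgdh, Impdh2 and Aprt have named pseudogenes in the annotation, like Tyms.

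Levels compared per length of a gene's merged annotated exons ran from 1.92 CPM per kilobase in T cell deficient and 1.45 in T cell sufficient lymphomas for Aldh1l2 to 198 and 213 for Nme2. This length is not that of the transcript expressed, so the order depends on the annotation. Hprt was next at 172 and 153, followed by Paics at 108 and 96.9, Shmt2 at 102 and 87.1, and Cmpk1 at 82.8 and 97.5. Phgdh stood at 95.0 and 68.2, and Prps2 at 51.8 and 106. Neighbours in this order, such as Phgdh and Cmpk1, lie within the spread of their groups. The least abundant beside Aldh1l2 were Dhodh at 3.29 and 3.13 and Impdh1 at 5.66 and 5.09.

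The 11 called genes kept their direction within each run. They were called on these same libraries, so the values by run describe them and are no independent test. Fitted on 1 run alone over all genes, edgeR called 0 of the 42 in run 1, where 11 had an unadjusted p under 0.05. In run 2 it called 4 of the 42, beside 1359 of all genes, against 0 of all genes in run 1. The 4 were Phgdh, Gmps, Prps2 and Guk1, the last lower (-0.37, edgeR adjusted p = 0.0446) and not among the 11. Impdh2 and Dut did not pass that fit of run 2 (edgeR adjusted p = 0.0534 and 0.0566). In run 1, exact permutation tests over all 792 splits gave a two-sided p under 0.05 for 9 of 11, and in run 2, over all 462 splits, for 7 of 11; after adjustment over the 22 tests 8 and 7 remained. For Prps2 the means were 214 ± 94.3 CPM in T cell deficient and 414 ± 157 CPM in T cell sufficient lymphomas of run 1 (exact p = 0.0227, n = 5 and 7). In run 2 they were 189 ± 72.2 and 405 ± 116 CPM (exact p = 0.0130, n = 6 and 5). Impdh2 passed in both runs (exact p = 0.00253 and 0.00216), as did Dut (exact p = 0.00379 and 0.00649), Shmt1 (exact p = 0.0278 and 0.0152), and Ctps (exact p = 0.00884 and 0.0325). Phgdh passed in run 2 (exact p = 0.0108) and not in run 1 (exact p = 0.117), and Gmps likewise (exact p = 0.00649 and 0.348), while Tyms, Umps, Dctpp1 and Gart passed in run 1 and not in run 2. The difference between the runs was tested by the interaction of group and run, and none of the 42 genes passed edgeR's test, beside 0% of all genes. At an unadjusted p under 0.05 there were 4, Cmpk1, Nme2, Nme1 and Guk1, all with adjusted p = 0.757.

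More of these genes differed between the runs than between the groups. With group as a term, 26 of the 42 were lower in run 2 than in run 1 and 0 were higher, beside 36.3% of all genes called, 17.7% lower and 18.6% higher (edgeR adjusted p under 0.05). Dctpp1 was lowest relative to run 1, at -1.30 ± 0.11 SE in log2 fold change (adjusted p = 1.02e-08), followed by Psat1 (-0.96 ± 0.23 SE), Psph (-0.95 ± 0.22 SE) and Nme1 (-0.94 ± 0.13 SE). Only Aldh1l2, Pfas and Samhd1 had positive run differences, and Prps2 was at -0.10 ± 0.21 SE. Each run holds different lymphomas apart from the 1 repeated library, which was not analysed here on its own, so that run and the set of animals in it cannot be told apart. Without the run term, 4 genes passed the group test (Shmt1, Ctps, Dut and Prps2), beside 1753 of all genes.

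**Figure D4:**
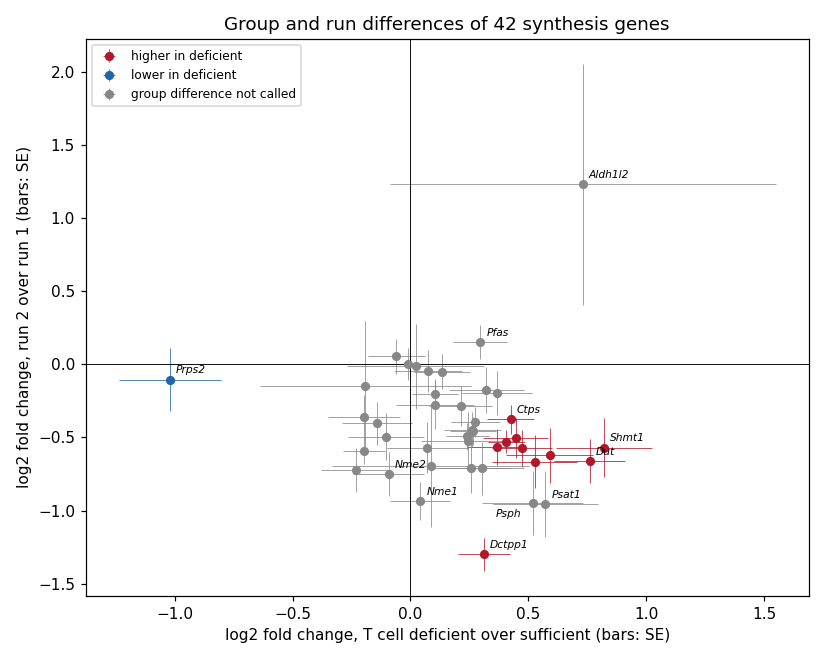
Log2 fold change of T cell deficient over T cell sufficient lymphomas (x axis) and of run 2 over run 1 (y axis) for the 42 genes, with standard errors on both axes. Most genes lie below 0 on the run axis, down to -1.30 for Dctpp1, while Prps2 lies far to the left at -1.02 with a run difference of -0.10.

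Genes of cell division moved with the group. The mean log2 CPM of 44 genes of cell division and DNA replication was 7.37 ± 0.25 in T cell deficient (SD, n = 11) and 6.86 ± 0.39 in T cell sufficient lymphomas (SD, n = 12). Of 22 cell division genes, 20 were higher, and of 22 replication genes 15 were higher and 0 lower. Mki67, a marker of cycling cells, averaged 1625 CPM in T cell deficient and 701 CPM in T cell sufficient lymphomas (1.03 ± 0.18 SE, edgeR adjusted p = 0.000692). With this mean as a further term of the fit, 0 of the 42 genes passed the test and 3 had an unadjusted p under 0.05, beside 20 of all genes called. The log2 fold change was then 0.18 for Dut, 0.09 for Shmt1, 0.04 for Umps, 0.33 for Phgdh, 0.28 for Impdh2 and -0.90 for Prps2 (adjusted p = 0.187), and it was below 0 for Tyms (-0.21), Gart (-0.09), Dctpp1 (-0.04) and Gmps (-0.000405). Since the division mean itself differs between the groups, the part of cell division in these differences cannot be told apart from that of the group.

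Within groups and runs, many of the genes followed the division mean from lymphoma to lymphoma. After group and run were subtracted, Pearson's r over the 23 libraries had a median of 0.363 over the 42 genes and of -0.02 over all genes tested. For 14 of the 42 it passed a permutation test within group and run (two-sided, Benjamini-Hochberg over 42), all of them positive. With Spearman's rho 16 passed, of which Ctps2 was negative (rho = -0.508). Dut (r = 0.877, rho = 0.824), Tyms (r = 0.873, rho = 0.804), Gart (r = 0.829, rho = 0.742), Shmt1 (r = 0.788, rho = 0.845) and Umps (r = 0.766, rho = 0.840) were the closest, with permutation p of at most 0.00019, where 1e-05 is the smallest these permutations can give. Without the 2 libraries farthest on the division mean these r were 0.794 for Dut, 0.798 for Tyms, 0.670 for Gart, 0.755 for Shmt1 and 0.807 for Umps. Phgdh (r = 0.308) and Prps2 (r = -0.138), both called between the groups, did not pass, nor did Impdh2 by Pearson's r (r = 0.398, rho = 0.493). Psat1 passed (r = 0.567) but was at 0.382 without those 2 libraries. The points share library depth and scaling, and these r describe the same lymphomas as the comparisons above.

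Genes outside the 42 were compared with Tyms and Phgdh over the 23 libraries, by Pearson's r after group and run were subtracted. Those most like Tyms were Cdc45, a part of the replicative helicase (r = 0.918), Cdk1, the kinase that starts mitosis (r = 0.913), and Nup37, a nuclear pore component (r = 0.890). Those most like Phgdh were Myb, a transcription factor of immature blood cells (r = 0.822), Uchl3, a ubiquitin hydrolase (r = 0.773), and Cct3, a subunit of the TRiC chaperonin (r = 0.763). These 6 were picked as the highest of all genes, so their r carry no test.

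Pairs of genes with linked roles were correlated within each group after subtracting run means, 16 relations in all, of which 8 passed a permutation test within runs (two-sided, Benjamini-Hochberg over 16). Ppat and Paics were close in both groups, with r = 0.965 and rho = 0.982 in T cell deficient (adjusted permutation p = 0.00136, n = 11) and r = 0.837 and rho = 0.790 in T cell sufficient lymphomas (adjusted permutation p = 0.00508, n = 12). Nme1 and Nme2 had r = 0.969 and rho = 0.964 in T cell deficient (adjusted permutation p = 0.00136, n = 11) and r = 0.714 and rho = 0.741 in T cell sufficient lymphomas (adjusted permutation p = 0.0472, n = 12). Cad and Gart, which act early in the pyrimidine and purine routes, had r = 0.847 and rho = 0.636 in T cell deficient (adjusted permutation p = 0.00755, n = 11) and r = 0.182 in T cell sufficient lymphomas (adjusted permutation p = 0.467, n = 12). Shmt2 and Mthfd2, which act in turn in the mitochondrion, had r = 0.917 and rho = 0.918 in T cell deficient (adjusted permutation p = 0.00261, n = 11) and r = 0.557 in T cell sufficient lymphomas (adjusted permutation p = 0.148, n = 12). Phgdh and Psat1 had r = 0.745 and rho = 0.446 in T cell deficient and r = 0.546 and rho = 0.392 in T cell sufficient lymphomas, of which the first passed (adjusted permutation p = 0.0397, n = 11). Mki67 and Tyms had r = 0.431 and rho = 0.518 in T cell deficient and r = 0.757 and rho = 0.552 in T cell sufficient lymphomas, the second past the test (adjusted permutation p = 0.0472, n = 12), with r = -0.05 in run 1 and 0.925 in run 2. Of the 8, Phgdh with Psat1 and Cad with Gart in T cell deficient lymphomas, and Nme1 with Nme2 and Mki67 with Tyms in T cell sufficient lymphomas, passed by Pearson's r and not by rho. Whether any pair differed between the groups was not tested. Without the 2 libraries farthest on the first gene of the pair, 2 relations passed, Ppat with Paics (r = 0.932) and Nme1 with Nme2 (r = 0.954), both in T cell deficient lymphomas. Both of these pairs are the neighbours whose reads may be mixed.

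**Figure D5:**
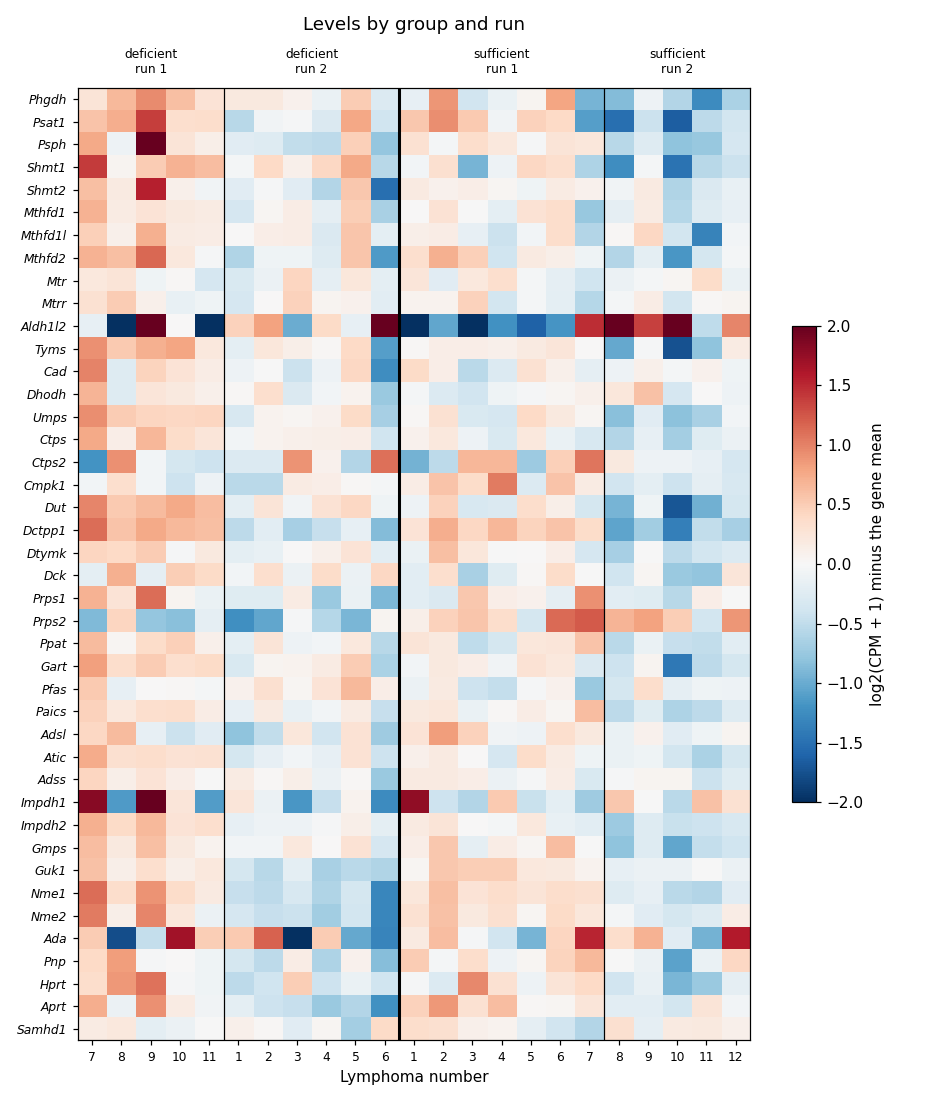
Level of each of the 42 genes in each lymphoma as log2(CPM + 1) minus the gene's mean over the 23 libraries, T cell deficient at left and T cell sufficient at right, each split into run 1 and run 2; colours saturate at -2 and 2. T cell deficient lymphomas 7 and 9 stand out as high and 6 as low, T cell sufficient lymphoma 10 as low, and the Prps2 row is low in most T cell deficient and high in most T cell sufficient columns.

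Single lymphomas held many of the extremes. T cell deficient lymphoma 7 was the highest of its group for 19 of the 42 genes, beside 16.3% of all genes, among them 4 of the 5 pyrimidine ring genes and all 3 nucleotide kinases; it was also highest for 10 of the 22 cell division genes and for all 3 tested neutrophil markers. T cell deficient lymphoma 6 was the lowest for 26 of the 42, beside 22.0% of all genes, and T cell sufficient lymphoma 10 for 19 of the 42, beside 14.1%. Leaving out T cell deficient lymphoma 6 and T cell sufficient lymphoma 10 together, chosen after seeing the data, left 10 of the 42 genes called, beside 2183 of all genes. Levels spread about as far in both groups, with a median SD of log2 CPM of 0.44 in T cell deficient and 0.41 in T cell sufficient lymphomas, and 0.36 and 0.40 over all genes of similar level. Aldh1l2 varied most (SD of log2 CPM 2.03 in T cell deficient and 2.48 in T cell sufficient lymphomas), followed by Ada (1.52 and 0.83) and Impdh1 (1.22 and 0.75), and Mtr (0.26 and 0.24) was among the steadiest.

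Other genes of the same routes were counted from lists, 88 genes in all, and in T cell deficient lymphomas 12 rose and 3 fell. In deoxynucleotide supply 6 of 14 were higher and 0 lower: Tk1, thymidine kinase of the S phase, was at 0.64 (edgeR adjusted p = 0.00158), Nme4, a mitochondrial nucleoside diphosphate kinase, at 1.47 (adjusted p = 0.00866), and Dctd, which turns dCMP into dUMP, at 0.77 (adjusted p = 0.0125). In the remaining folate and methionine genes 2 of 17 were higher, Ahcy at 0.45 and Mmadhc at 0.30, and Cth did not pass (1.76, adjusted p = 0.0580). Cth stood at 136 CPM in T cell deficient lymphoma 9 and at 0.568 to 8.67 CPM in the other T cell deficient lymphomas. In T cell sufficient lymphomas it ranged from 0.362 to 15.6 CPM, so its fold change rests on that 1 library. In purine salvage and breakdown 1 of 19 was higher and 2 were lower, the nucleoside transporter Slc29a3 at -0.70 (adjusted p = 0.000531) and the nucleotidase Nt5c at -0.49. In pyrimidine salvage and breakdown, Uck2, a uridine and cytidine kinase, was higher at 0.64 and Tymp, thymidine phosphorylase, lower at -0.77, of 11 genes. None of the 8 serine and glycine transporters passed, Sfxn3 having the smallest adjusted p (0.160), and none of these 8 had an unadjusted p under 0.05. Among 19 other genes of the ATF4 response 2 were higher, Stc2, a secreted glycoprotein (adjusted p = 0.00125), and Slc7a1, a transporter of basic amino acids, at 0.51 (adjusted p = 0.0135), while Wars was at -0.31 and did not pass (adjusted p = 0.0628). Stc2 ranged from 0.127 to 83.1 CPM in T cell deficient lymphomas, highest in lymphoma 9, against 0 to 1.12 CPM in T cell sufficient lymphomas, so its fitted fold rests on levels near 0 and is not given. The share of the list genes called ran from 0 to 42.9% by list, beside the 22.2% of all genes.

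In the authors' deposited table, with T cell deficient lymphomas on top of the ratio, 10 of the 42 genes were higher at an adjusted p under 0.05, beside 11.0% of all genes, and 1 was lower, beside 11.7%. It called Dtymk (authors' deposited table, 0.29, adjusted p = 0.0497) and not Dctpp1 (authors' deposited table, 0.29, adjusted p = 0.0620). For Prps2 the authors' deposited table gave -1.04 (adjusted p = 0.00204).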

How the data were processed

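RNA came from purified B lymphoma cells and was made into TruSeq libraries, per the labels. The authors deposited counts per gene and CPM, counts scaled to the library total, for 23 libraries, and the log2 fold change, average log2 level, p-value and adjusted p-value from their own comparison. The submitters' processing notes name mm10, GRCm38 and limma; no source used here gives the aligner, counting tool, annotation or strand setting. The column of T cell sufficient lymphoma 4 has a suffix that differs from the one in its label and was matched by number. Whether that of T cell sufficient lymphoma 1 holds 1 or both of its libraries is not stated.

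The deposited counts entered edgeR 4.0.16 (R 4.3.3) unchanged. Low genes were removed by filterByExpr (120 of 11140, none of the 42), TMM factors scaled the libraries, and the robust quasi-likelihood fit held run and group. A gene is called at an adjusted p (Benjamini-Hochberg) under 0.05 over all 11020 tested. The standard error is the log2 fold change over the square root of F. Log2 CPM for correlations used a prior count of 2, and permutation tests drew 100000 relabellings within runs. Lengths and positions are from GENCODE M21 on GRCm38. The length of a gene is that of all its annotated exons merged, so levels and shares per length depend on the annotated isoforms. Each lymphoma is labelled as its own sample, the labels do not name the mouse, and p-values measure the spread between these samples. Results were recomputed with DESeq2 1.42.0, limma 3.58.1, other scalings, filters, covariates and thresholds, in single runs, with lymphomas left out, and with a replicate block. The code was tested on simulated data. All 42 genes are named, with lowest, median and highest levels for those called and for the gene of each route highest per length; up to 3 genes of smallest p are named per list, apart from some that are not reported here, and the others after their values were seen. Genes and lists were chosen with earlier results of these data known. The CPM given for 3 counts is a conversion by library total and no error interval.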

Additional observations from a re-analysis of the deposited data

Results flagged for a closer look

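Of 44 sets of a called gene in the libraries of 1 group and run, 2 held a library far from the others by a gap rule that flags about 1 in 20 sets by chance. Both were T cell deficient lymphoma 7 in run 1, with 212.1 CPM of Umps and 99.67 CPM of Dctpp1. Without this lymphoma, Umps was at a log2 fold change of 0.42 (edgeR adjusted p = 0.0233) and Dctpp1, at 0.27, did not pass the test (adjusted p = 0.0816).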

How the results depend on the processing

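Of the 42 genes 11 passed the test, and of the 88 other pathway genes 15. Library totals alone as scaling gave 18 of the 42, with 1608 genes higher and 1027 lower among all genes, against 1163 and 1285 with TMM. Without the run term the counts were 4 and 9, in run 2 alone 4 and 7, at an adjusted p under 0.01 5 and 4, and without T cell sufficient lymphomas 9, 10 and 11, an alternative chosen after seeing the data, 7 and 7. Over all genes these settings called 1753, 1359, 1027 and 1470 in that order, against 2448 in the main fit. Run 1 alone called 0 and 0 (edgeR; 11 and 16 at an unadjusted p under 0.05) and 0 of all genes. The mean of division and replication genes as a term gave 0 and 0 (3 and 8 at an unadjusted p under 0.05), and with it Tyms (-0.21), Dctpp1 (-0.0415), Gart (-0.0914) and Gmps (-0.000405) turned below 0. A test against a 1.5-fold change called 0 of the 42 (3 at an unadjusted p under 0.05) and 1 pathway gene, beside 253 of all genes. Why these counts moved was not tested. Leaving out 1 lymphoma gave 7 to 14 of the 42 and 12 to 19 pathway genes, beside 1945 to 2783 of all genes. DESeq2 called 16 of the 42 and 19 pathway genes, beside 3161 of all genes, and limma-voom 11 and 15, beside 2497. Prps2 stayed below 0 in every alternative run, from -1.17 to -0.90. Of 8 correlated pairs, 2 passed without the 2 libraries farthest on the first gene.

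The labels number the lymphomas within each group, and whether equal numbers mark pairs was looked at without a test. Over 11 pairs the correlation of deviations had a median of 0.109 and ran from -0.277 to 0.29, with 6 over 0.1. Best with their own number correlated 3 lymphomas, and pairing cannot be decided from these untested values. With the replicate block 10 of the 42 genes, 11 pathway genes and 1832 of all genes passed.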

Other observations

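The 42 genes summed to 6696 ± 1459 CPM in T cell deficient (SD, n = 11) and 6188 ± 1029 CPM in T cell sufficient lymphomas (SD, n = 12), with overlapping ranges of 4704 to 9139 CPM and 4416 to 7926 CPM. The SD of log2 CPM was the larger one in T cell deficient lymphomas for 24 of the 42 genes (57.1%), and for 39.5% of the 8248 genes of similar level. Guk1 was below every T cell sufficient lymphoma in 6 of 11 T cell deficient lymphomas, and Adsl, Nme2 and Aprt each in 5, though none of them passed the test. The 6 for Guk1 were the 6 T cell deficient lymphomas of run 2. Its group difference was -0.37 in run 2 and -0.03 in run 1, and it was lower in run 2 than in run 1 (-0.59 ± 0.09 SE). Among other genes of the ATF4 response, T cell deficient lymphoma 9 held the highest level of 14 of 19 among all 23 libraries, as chosen after its values were seen.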
